A study of Mus musculus with 10 samples.

Results

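The G-CSF comparison covers the 6 cultured arrays of a 10-array study of mouse neutrophils, 3 arrays with granulocyte colony-stimulating factor (G-CSF) and 3 without it. All cells were circulating neutrophils purified from nude NCR females, which lack a thymus, without a tumor, and they were kept for 2 h in OptiMEM with 0.5% fetal bovine serum and then frozen. The arrays with the cytokine received human recombinant G-CSF alone, G-CSF with mouse CCL2, or G-CSF with mouse CCL5, and their counterparts received no addition, CCL2, or CCL5. The chemokines were used at 20 ng/ml, a G-CSF dose is not given in the sources used here, and the labels name the G-CSF as a treatment without saying whether it was given in the culture well or to the mouse. Each of the 6 conditions is a single array, so the arms were compared as 3 pairs that share a chemokine setting. The p-values and standard errors rest on the spread of these pairs, which the fit draws toward the typical spread over all genes. The labels leave unsaid whether the pairs come from separate mice or cultures. The other 4 arrays, from uncultured neutrophils of mice bearing 4T1 mammary tumors (2 arrays) and of control mice (2 arrays), are used below for reference levels and in tests of differences.

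G-CSF is the cytokine that drives the production of neutrophils in bone marrow and their release into blood. Its receptor, encoded by Csf3r, has no kinase of its own and signals through bound Janus kinases, which phosphorylate the transcription factor STAT3 and, to a lesser degree, other STAT proteins. Mature neutrophils keep the receptor, and G-CSF is known to prolong their survival and to prime their responses.

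Probes entered with a scanner detection p-value under 0.05 on 2 or more of the 6 arrays, which left 8610 genes, each read from 1 probe. Levels are background-corrected, quantile-normalized log2 intensities, and a change is the mean of the 3 pair differences, G-CSF minus without, with the standard error (SE) of a limma fit and a p-value adjusted over all 8610 genes. In each arm the arrays are listed in the order no chemokine, CCL2, CCL5. The arrays with G-CSF were brighter before normalization, with median signals of 121.5, 110.7 and 124.4 against 108.2, 99.2 and 101.5 without it, and between 31.57% and 32.79% of probes were detected on them, against 29.21% to 30.85%. Quantile normalization makes these distributions equal and left a median change of 0.06 over all genes. Scaling each array to the median of all probes gave a median change of 0.41, and scaling to the probes detected on all 6 arrays gave -0.17. Where a list's direction turned under one of these scalings, its counts or median under that scaling are given with it. Normalized arrays correlated across the 8610 genes at 0.984 to 0.991 within an arm and at 0.955 to 0.959 between arms. Csf3r, S100a8 and Retnlg, which mark neutrophils, were among the brighter genes of both arms, and markers of other blood cells were lower with G-CSF, as given below. In RNA from a bulk of cells, fewer cells of a type and less RNA per cell cannot be told apart.

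In limma 2485 of the 8610 genes (28.9%) passed an adjusted p of 0.05, 1425 of them higher with G-CSF (16.6%) and 1060 lower (12.3%). The counts of every gene list below are to be read beside these shares of 16.6% higher and 12.3% lower. A change of 2-fold or more was seen in 347 of the higher and 371 of the lower genes. All 3 pairs changed the same way for 2484 of the called genes, and the 2 arms did not overlap for 2398 of them, where 44.9% of all genes tested have arms that do not overlap. Most risers and fallers named below were picked from called genes with non-overlapping arms, so separate arms and same-way pairs follow from that choice. The share of called genes that were higher was 57.3%, against 88.9% of 4512 under scaling to the median of all probes and 34.1% of 3390 under scaling to the detected probes. Read against all 8610 genes, the first of these scalings calls 46.6% higher and 5.84% lower, and the second 13.4% higher and 26% lower. In total 1099 genes were called higher and 466 lower under quantile normalization, both scalings and the authors' own processed values alike. Of the 6082 genes detected on all 6 arrays 2017 were called (33.2%). Another 470 genes were detected on 2 or 3 arrays with G-CSF and on 0 without, of which 125 rose, and 203 the other way round, of which 40 fell. Over all genes the count of calls was 1420 without the pair that had no chemokine, 2040 without the CCL2 pair and 1742 without the CCL5 pair.

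Saa3, which encodes an acute-phase serum amyloid protein, had the largest change. It stood at 12.87, 13.06 and 13.04 with G-CSF, against 8.27, 7.85 and 8.84 without it, so the lowest array with G-CSF was far above the highest array without it. The change was 4.67 ± 0.21 on the log2 scale, or 25.4-fold (adjusted p = 2.99e-05). Nupr1, a small stress-induced chromatin protein, followed with 12.09, 12.08 and 12.09 with G-CSF, against 8.24, 8.53 and 8.18 without it, and the 3 arrays of the G-CSF arm were nearly identical (change 3.77 ± 0.16, 13.7-fold). Casp6, an executioner caspase, read 10.79, 10.73 and 10.57 with G-CSF, against 7.63, 7.72 and 7.68 without it (change 3.02 ± 0.16). Neither gene overlapped between the arms, and the other probe of Casp6 gave 2.71. At the other end, Nt5e, which encodes the cell-surface enzyme CD73 that makes adenosine from AMP, read 6.02, 6.58 and 5.89 with G-CSF, against 9.45, 9.59 and 9.78 without it. All 3 arrays with G-CSF were low, and the change was -3.44 ± 0.20 (10.9-fold lower, adjusted p = 7.16e-05), with -2.68 on its other probe. Tnfsf13b, the B cell survival factor BAFF, read 8.40, 8.36 and 8.40 with G-CSF, against 11.12, 10.91 and 11.33 without it, and its 3 probes gave changes of -2.73, -2.53 and -2.84.

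**Figure D1:**
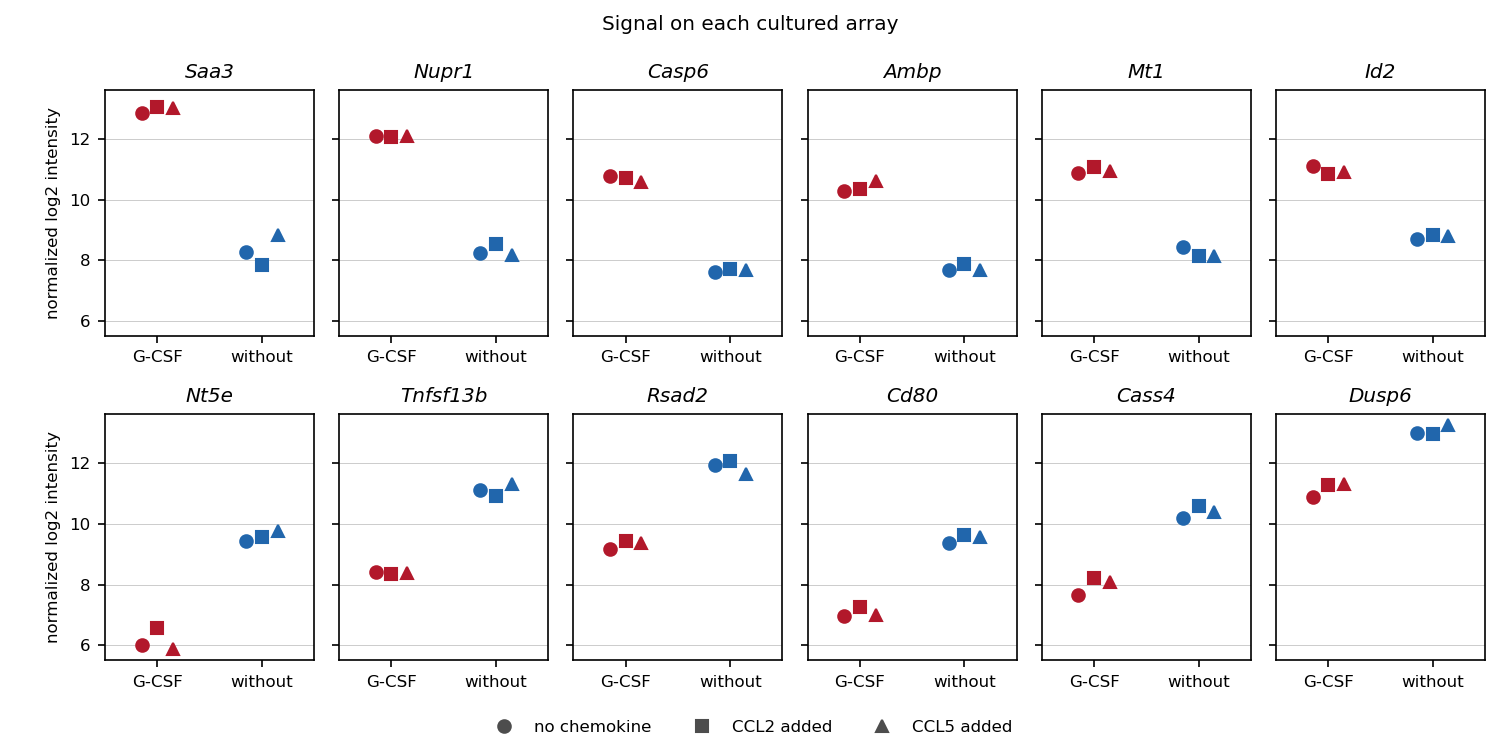
Normalized log2 level (vertical axis) of 12 genes on each of the 6 cultured arrays, as 1 point per array, with the arm with G-CSF on the left (red) and the arm without it on the right (blue) of each panel, and a symbol for each chemokine setting. The arms are separate for each of the 12 genes, which were picked among genes with non-overlapping arms. Saa3 lies between 12.87 and 13.06 with G-CSF and between 7.85 and 8.84 without it.

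The gene of the receptor did not pass the test. Csf3r read 12.70, 12.72 and 12.84 with G-CSF, against 12.77, 12.84 and 12.93 without it, the arms overlapped, and the change was -0.10 ± 0.15 (adjusted p = 0.688), with -0.17 to -0.59 on its 4 other probes. Among 20 tested genes of the receptor's signalling machinery 4 rose and 3 fell, near the 16.6% higher and 12.3% lower among all genes. Their median change was -0.04 (0.38 under scaling to the median of all probes). Tyk2, a Janus kinase, rose by 0.95 ± 0.16, Pik3cg, the catalytic subunit of a leukocyte phosphoinositide kinase, by 1.19 ± 0.16 and Map3k8, a kinase upstream of ERK, by 0.97 ± 0.17. Stat2, a transcription factor of interferon signalling, fell by 0.83 on the log2 scale (SE 0.18). Stat3, the main transducer of the receptor, read 10.06, 10.39 and 10.49 with G-CSF, against 10.51, 10.41 and 10.59 without it, and with a change of -0.19 (adjusted p = 0.440) it stayed within the spread of the pairs.

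Feedback inhibitors of cytokine and growth factor signalling moved down or did not pass. Of 20 tested genes 10 fell and 0 rose, beside 12.3% lower and 16.6% higher among all genes, with a median change of -0.57. Scaling to the median of all probes gave 7 lower and 3 higher (median -0.13), and scaling to the detected probes 13 lower and 0 higher (median -0.70). Dusp6, the phosphatase that inactivates ERK kinases, read 10.88, 11.29 and 11.33 with G-CSF, against 13.01, 12.98 and 13.25 without it, a fall of 1.91 on the log2 scale (SE 0.17). Both arms were tight and apart. Socs2, a suppressor of growth hormone and other cytokine receptors, read 5.38, 5.74 and 5.10 with G-CSF, against 6.92, 7.48 and 7.04 without it (change -1.74 ± 0.16). Usp18, which restrains the interferon receptor, changed by -1.50 ± 0.18, Dusp5 by -0.90 and the inducible phosphatase gene Dusp1 by -0.79. Socs3, the inhibitor that STAT3 induces against the G-CSF receptor, did not follow them. It read 10.32, 10.28 and 10.52 with G-CSF, against 10.14, 10.24 and 9.86 without it, every array with G-CSF being above every array without it, but by only 0.30 ± 0.18 (adjusted p = 0.245).

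Known targets of STAT3 or of the G-CSF receptor went both ways, with 7 of 28 tested genes higher and 6 lower and a median of 0.15, and when arrays were scaled to the detected probes 4 were higher and 9 lower (median -0.14). Cdkn1a, a cell cycle inhibitor, rose by 1.05 ± 0.16 and Gadd45a, a growth arrest gene, by 0.94 ± 0.15. Ccnd2, which encodes cyclin D2, read 7.42, 7.26 and 7.02 with G-CSF, against 9.34, 9.11 and 9.15 without it, a fall of 1.97 (SE 0.16). Osm, the cytokine oncostatin M, read 8.46, 8.89 and 8.45 with G-CSF, against 10.01, 10.63 and 10.26 without it and fell by 1.70 (SE 0.16). These last 2 genes had non-overlapping arms and were lower on every array with G-CSF. Pim1, Bcl3, Junb and Mcl1 did not pass, with changes of -0.12, -0.13, 0.15 and -0.36.

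Secreted acute-phase and defence proteins were higher as a group. Of 23 tested members 16 rose and 0 fell, beside 16.6% higher and 12.3% lower among all genes. The median change was 1.08, against 0.06 over all genes (1.40 and 0.83 under the 2 scalings, the second with 12 higher and 2 lower). Of the 23 members 3 were detected on no array without G-CSF, so they passed the filter through the G-CSF arm alone. Ambp, the precursor of a plasma protease inhibitor, read 10.28, 10.35 and 10.62 with G-CSF, against 7.68, 7.86 and 7.68 without it (change 2.67 ± 0.17). F10, coagulation factor X, rose by 2.30 ± 0.16, Wfdc17, a whey acidic protein of activated macrophages, by 1.80 ± 0.15 and Chil1, a chitinase-like lectin, by 1.08 ± 0.20. Stefin genes, which encode inhibitors of cysteine proteases, rose as well. Stfa1 read 14.16, 14.20 and 14.09 with G-CSF, against 12.74, 12.54 and 12.65 without it (change 1.51 ± 0.16), and Stfa2 and Cstdc5 changed by 2.07 ± 0.17 and 2.38 ± 0.18. A second Stfa2 probe gave 3.75, and probes cannot fully separate these near-identical genes. Chil3, a chitinase-like protein of myeloid cells, read 8.19, 8.07 and 8.12 with G-CSF, against 4.80, 5.31 and 5.48 without it (change 2.93 ± 0.19, with 1.61 on another probe). Chil4, its close relative, and Wfdc18 were not detected on any array without G-CSF and rose by no less than 5.50-fold and 5.95-fold with it, where each undetected array is set to no less than the lowest level detected on it. Lcn2, the siderophore-binding lipocalin of granules, read 14.25, 13.85 and 14.08 with G-CSF, against 13.21, 13.52 and 13.38 without it and rose by 0.69 ± 0.18, a call that was lost without the pair that had no chemokine (0.51), without the CCL5 pair (0.68) and under scaling to the detected probes (0.47). Orm1, Slpi and Hp did not pass (-0.32, 0.22 and 0.40).

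The promoters of Chil3, Chil4 and Nupr1 are shown because these are the 3 genes among the 15 largest rises whose promoter window holds the spaced element TTCNNNGAA that STAT factors bind. Sequences are from RefSeq, build GRCm38.p6, from 250 bases before to 50 bases after the annotated gene start, in the direction of the gene, with the match in capitals. Chil3 lies at chr3:106167515-106167814, Chil4 at chr3:106219430-106219729 and Nupr1 at chr7:126625421-126625720, all on the minus strand.
Chil3: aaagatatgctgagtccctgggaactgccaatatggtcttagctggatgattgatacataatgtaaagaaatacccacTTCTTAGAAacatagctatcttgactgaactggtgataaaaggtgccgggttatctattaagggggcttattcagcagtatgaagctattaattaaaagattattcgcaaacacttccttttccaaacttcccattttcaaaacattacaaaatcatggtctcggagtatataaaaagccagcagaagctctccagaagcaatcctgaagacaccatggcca
Chil4: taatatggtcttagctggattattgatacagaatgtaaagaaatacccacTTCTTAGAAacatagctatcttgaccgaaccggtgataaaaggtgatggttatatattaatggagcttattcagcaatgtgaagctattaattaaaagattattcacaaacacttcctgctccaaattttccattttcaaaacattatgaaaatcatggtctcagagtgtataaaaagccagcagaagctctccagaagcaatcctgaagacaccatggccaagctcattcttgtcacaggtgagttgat
Nupr1: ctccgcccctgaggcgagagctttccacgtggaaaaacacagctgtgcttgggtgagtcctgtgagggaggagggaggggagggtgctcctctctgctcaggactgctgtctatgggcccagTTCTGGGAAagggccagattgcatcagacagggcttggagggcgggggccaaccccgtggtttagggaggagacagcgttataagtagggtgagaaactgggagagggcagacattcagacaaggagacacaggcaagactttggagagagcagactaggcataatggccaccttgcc
The match begins 172 bases before the gene start in Chil3, 200 before in Chil4 and 128 before in Nupr1. The element, which reads the same on both strands, is in the windows of 3 of 14 such genes with a window (21.4%), of 2 of 15 risers of the secreted list (13.3%), of 8.04% of all genes that rose, of 8.78% of all genes that fell, of 8.3% of the genes tested and of 9.55% of all 27025 genes with a window. Chil3 and Chil4 share most of the flanking sequence, so they are not independent examples.

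Granule genes divided. In the primary granule list, the azurophil proteins made by early precursors, 1 of 10 tested genes rose and 0 fell (median 0.24, and -0.07 under scaling to the detected probes). Prtn3, which encodes proteinase 3, was the one that rose and read 5.79, 5.56 and 5.58 with G-CSF, against 4.32, 4.62 and 4.73 without it. It was detected on 3 arrays with G-CSF and on 0 without, so the rise is at least 1.69-fold. Mpo, the peroxidase of the same granules, stood at 0.15 (adjusted p = 0.551). In the secondary and tertiary granule list 7 of 21 genes rose and 5 fell, with a median of 0.23 (0.62 and 0.04 under the scalings). Ngp, a cathelin-like granule protein, read 9.53, 9.02 and 9.05 with G-CSF, against 7.37, 7.74 and 7.31 without it (change 1.73 ± 0.20), and Cd177, a neutrophil surface antigen stored in granules, read 11.70, 11.64 and 11.58 with G-CSF, against 10.03, 10.11 and 10.00 without it (change 1.59 ± 0.15). Both were higher on every array with G-CSF. Mmp8, neutrophil collagenase, rose by 1.13 ± 0.21, whereas Adam8, a surface metalloprotease, read 8.27, 8.53 and 8.44 with G-CSF, against 9.77, 10.12 and 10.15 without it and fell by 1.59 (SE 0.16). Camp, Mmp9 and the abundant S100a8 and S100a9 did not pass (0.06, 0.31, 0.10 and -0.02). Over the 14 neutrophil markers as a list 4 rose and 2 fell, with a median of 0.21.

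Receptors for chemoattractants were lower more often than higher. Of 18 tested genes 3 rose and 9 fell, beside 16.6% higher and 12.3% lower among all genes. The median change was -0.56 (-0.28 and -0.86 under the 2 scalings). Cxcr2, the main receptor for neutrophil-attracting chemokines, read 11.28, 11.25 and 11.28 with G-CSF, against 12.28, 12.12 and 12.12 without it, a fall of 0.90 on the log2 scale (SE 0.16). Cxcr4, the receptor that retains neutrophils in marrow, read 10.67, 9.72 and 10.16 with G-CSF, against 11.28, 11.74 and 11.45 without it, a fall of 1.31 (SE 0.25) with a wider spread in the G-CSF arm. C5ar2, the second receptor of complement C5a, read 7.0, 6.65 and 7.08 with G-CSF, against 8.25, 8.31 and 8.17 without it (change -1.33 ± 0.17). None of these 3 genes overlapped between arms, which for Cxcr2 and C5ar2 was a condition for picking them. The risers included Ffar2, a receptor for short-chain fatty acids, with 9.15, 8.76 and 9.16 with G-CSF, against 7.25, 7.15 and 7.14 without it (change 1.84 ± 0.16), and Ltb4r1, the high-affinity receptor of leukotriene B4, with 8.93, 9.24 and 8.81 with G-CSF, against 7.65, 7.27 and 7.53 without it (change 1.51 ± 0.19). Cxcr1 rose by 0.72, and it no longer passed without the CCL2 pair (0.59). Receptors of formyl peptides and C5a, Fpr2 and C5ar1, stood at 0.03 and -0.18 and did not pass. Of the receptors of CCL2 and CCL5, Ccr1 and Ccr2 did not pass the detection filter, and Ccr3 differed by -0.51 (adjusted p = 0.303), or by -1.14 without the pair that had no chemokine, where it passed.

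Adhesion genes moved in both directions. Of 27 tested 4 rose and 13 fell with a median of -0.32, beside 16.6% higher and 12.3% lower among all genes. But under scaling to the median of all probes 6 rose and 4 fell with a median of 0.01. Itga5 and Itgb1, the chains of the classical fibronectin receptor, both rose, Itga5 with 10.24, 10.01 and 9.80 with G-CSF, against 8.49, 8.59 and 8.20 without it (change 1.59 ± 0.16) and Itgb1 with 6.73, 6.78 and 6.90 with G-CSF, against 5.56, 5.88 and 5.02 without it (change 1.32 ± 0.21). Itgb7, the beta chain of gut-homing integrins, read 6.86, 6.85 and 6.75 with G-CSF, against 8.37, 8.78 and 8.68 without it and fell by 1.79 (SE 0.17). Cass4, a scaffold of integrin signalling, read 7.67, 8.23 and 8.08 with G-CSF, against 10.20, 10.59 and 10.41 without it and fell by 2.41 (SE 0.16). Fut4, a fucosyltransferase that helps make selectin ligands, read 6.64, 6.67 and 6.65 with G-CSF, against 9.46, 8.89 and 9.37 without it and fell by 2.59 (SE 0.18). Each of the last 3 was lower on all 3 arrays with G-CSF. The leukocyte integrin chains Itgb2 and Itgal did not pass (-0.13 and -0.15).

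Secreted cytokines fell more often than they rose. Among 25 tested genes 5 rose and 10 fell, beside 16.6% higher and 12.3% lower among all genes. The median change was -0.13 (-0.03 and -0.61 under the scalings). Il12a, the p35 subunit of interleukin 12, read 10.00, 9.97 and 9.90 with G-CSF, against 7.28, 7.92 and 7.76 without it (change 2.30 ± 0.18), and Prok2, the myeloid chemoattractant prokineticin 2, read 10.09, 9.90 and 9.96 with G-CSF, against 7.88, 8.16 and 7.59 without it (change 2.10 ± 0.18). Both were clearly higher on all 3 arrays with G-CSF. Tnfsf14, the TNF family ligand LIGHT, read 7.50, 7.84 and 7.60 with G-CSF, against 9.23, 9.28 and 9.17 without it (change -1.58 ± 0.16, and -0.23 on another probe). Il18, an interleukin 1 family cytokine, read 7.63, 7.65 and 7.65 with G-CSF, against 8.90, 9.13 and 9.18 without it (change -1.43), Il15, a growth factor of lymphocytes, changed by -1.16 ± 0.18, and Vegfa, the vascular growth factor, by -1.14 ± 0.16. Il1b, Tnf and Il6 did not pass (0.04, -0.07 and -0.09). Csf3, the gene of G-CSF itself, was detected on 3 arrays with the cytokine and 0 without, near background, at least 1.12-fold higher, and its call was lost without the pair that had no chemokine (0.83 on the log2 scale), without the CCL2 pair (0.42) and under scaling to the detected probes (0.16). Of 14 chemokine genes 3 rose and 4 fell, but 4 rose and 2 fell under scaling to the median of all probes, and 1 rose and 5 fell under scaling to the detected probes. Ccl9, a chemokine of myeloid cells, rose by 0.79 ± 0.16, Ccl24, an attractant of eosinophils, changed by -0.83 ± 0.16, and for Ccl2 the rise is at least 1.34-fold, since it was detected on 0 arrays without G-CSF, and its call was lost under scaling to the detected probes (0.36 on the log2 scale). Ccl5 read 6.72, 6.57 and 6.67 with G-CSF, against 7.85, 7.26 and 7.77 without it and fell by 0.98 (SE 0.17), a call lost under scaling to the median of all probes (-0.41).

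Cytokine receptor genes rose in 3 and fell in 12 of 30 tested cases with a median of -0.30, beside 16.6% higher and 12.3% lower among all genes. Under scaling to the median of all probes 10 rose and 5 fell with a median of 0.07. Kit, the receptor of stem cell factor on progenitors and mast cells, read 8.07, 7.89 and 7.59 with G-CSF, against 4.58, 4.59 and 4.86 without it. It was detected on all 3 arrays with G-CSF and on 0 without, at least 7.81-fold higher, and the other probe of the gene gave 0.01. Receptor subunits for interleukin 18, Il18r1 and Il18rap, fell by 1.22 and 0.98 on the log2 scale (SE 0.19 and 0.18). Tgfbr1, a receptor of transforming growth factor beta, read 12.08, 11.95 and 11.93 with G-CSF, against 13.17, 13.19 and 13.03 without it (change -1.14 ± 0.16), and Il1rap, the shared subunit of interleukin 1 receptors, changed by -1.09 ± 0.20. Il1r2, Ifngr1 and Ifnar2 did not pass (-0.42, 0.29 and 0.42).

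**Figure D2:**
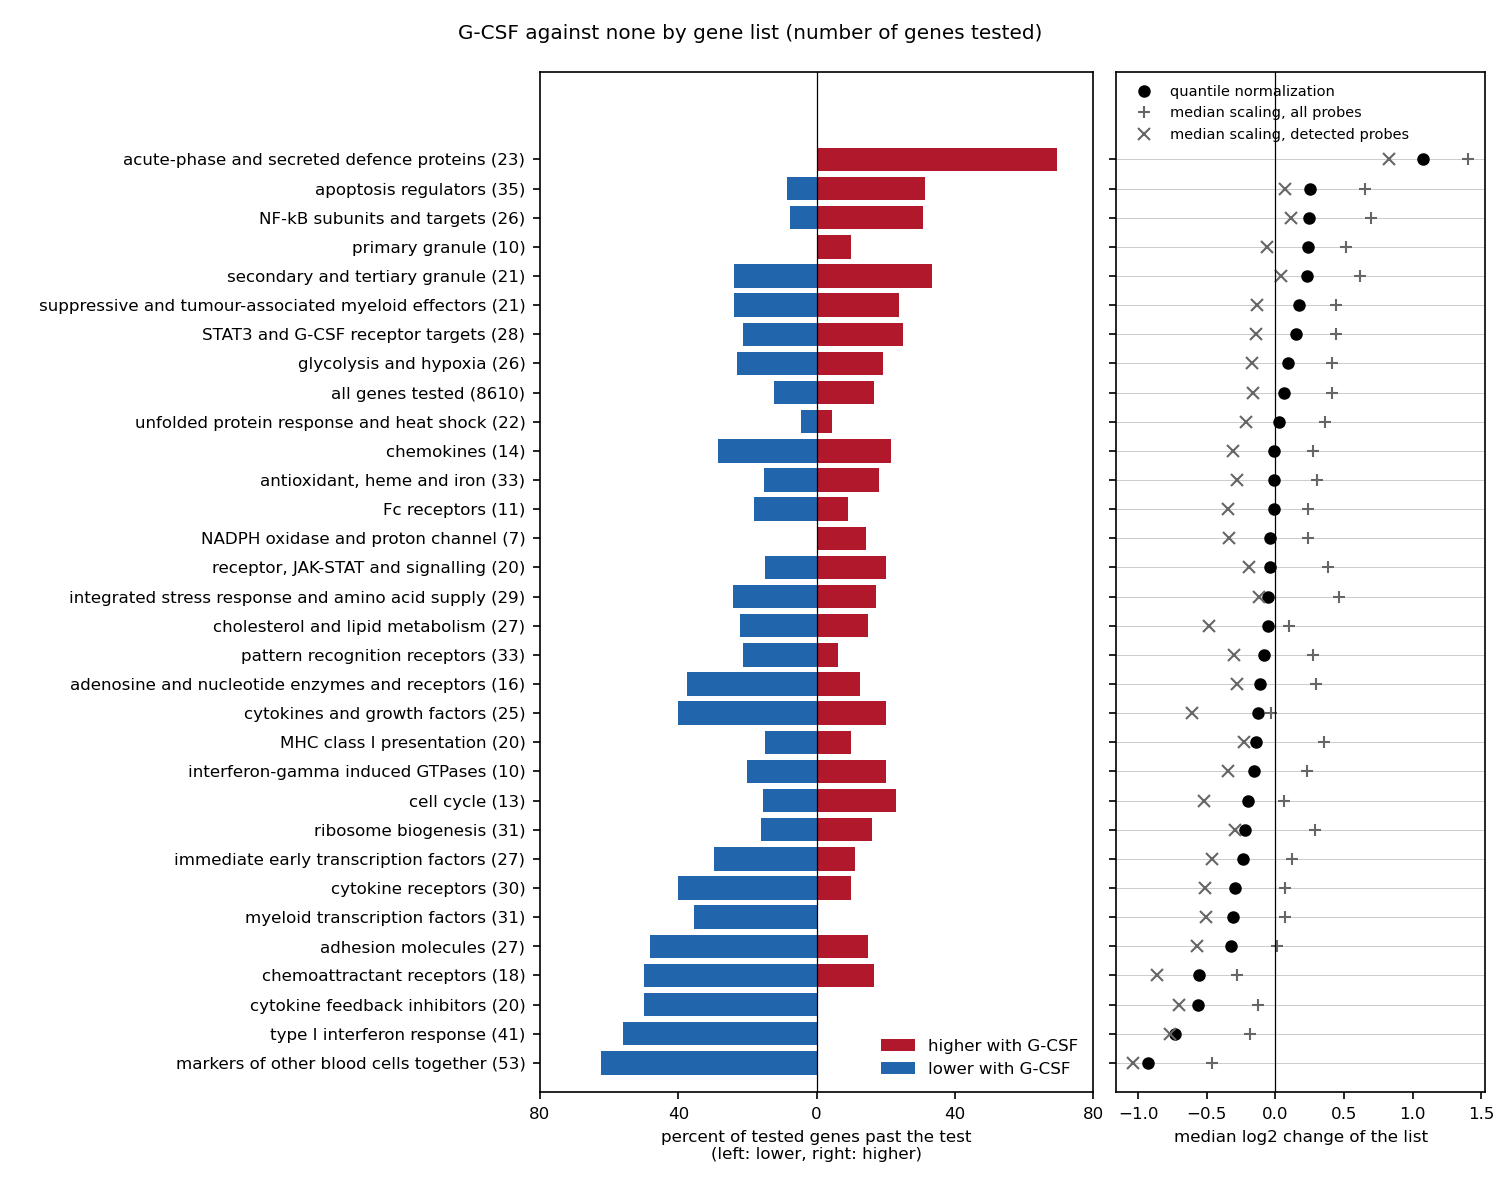
Percent of each gene list's tested members that rose (red bars, right) or fell (blue bars, left) with G-CSF at an adjusted p of 0.05, and, in the second panel, the lists' median log2 changes under quantile normalization and under both scalings. The acute-phase list has 16 risers and 0 fallers of 23, and the type I interferon list 0 risers and 23 fallers of 41 (8 and 20 under scaling to the median of all probes), beside 16.6% and 12.3% of all 8610 genes.

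Genes induced by type I interferon were lower as a group. Interferon signals through transcription factors that include STAT2 and IRF9 and that bind the interferon-stimulated response element (ISRE) in promoters of antiviral genes. Of 41 tested members 23 fell and 0 rose, against 12.3% lower among all genes, and the median change was -0.73 (-0.19 and -0.77 under the scalings, where all genes had 0.41 and -0.17). Under scaling to the median of all probes 20 fell and 8 rose. On the same arrays 33 of 53 markers of other blood cells fell, and their part in this result was not tested. Rsad2, the antiviral enzyme viperin, read 9.18, 9.43 and 9.38 with G-CSF, against 11.94, 12.07 and 11.65 without it, a fall of 2.56 on the log2 scale (SE 0.17, adjusted p = 8.11e-05). Ifit3, a tetratricopeptide protein that inhibits viral replication, read 5.71, 5.17 and 4.93 with G-CSF, against 7.96, 8.36 and 8.17 without it (change -2.89 ± 0.22, and -0.92 on another probe). Isg15, a ubiquitin-like modifier, read 6.19, 6.97 and 6.59 with G-CSF, against 8.52, 9.03 and 8.95 without it (change -2.25 ± 0.16). For each of these the highest array with G-CSF was below the lowest array without it. Cmpk2, a nucleotide kinase encoded beside Rsad2, read 5.21, 6.04 and 5.40 with G-CSF, against 8.55, 8.65 and 8.03 without it (change -2.86 ± 0.19). Irf7, the transcription factor that amplifies the interferon response, read 6.96, 6.88 and 6.73 with G-CSF, against 9.03, 8.87 and 9.05 without it (change -2.13 ± 0.16). The RNA-sensing synthetases Oas2 and Oas3 changed by -1.45 and -1.78 (another Oas3 probe gave -0.77), the nuclear body genes Sp100 and Pml by -1.35 and -0.98, and Ifi27 by -1.47. Ifit2 was detected on all 3 arrays without G-CSF and on 0 with it, so its fall is at least 1.51-fold. The 18 members that did not pass lay between -0.32 for Oasl2 and 0.60 for Parp9, and they included Eif2ak2, the kinase PKR (-0.16), Irf1 (-0.24), Ifitm3 (-0.05) and Dhx58 (-0.07). Ifitm1 stood at 0.44 on the probe used and at -1.07, -0.89, 0.14 and 1.05 on its 4 others.

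Promoters of 4 lower genes are shown as examples, picked after their values and matches were seen, of the 48 lower genes whose windows hold the ISRE core GAAANNGAAA, or TTTCNNTTTC on the other strand. Oas1g, Oas3, Stat2, Lgals9 and Ifit1bl2 also hold it and are not printed. The build, the window and the direction are those given for Chil3, and capitals mark each match. Ifit3 lies at chr19:34583279-34583578 on the plus strand, Isg15 at chr4:156200769-156201068 and Rsad2 at chr12:26456403-26456702 on the minus strand, and Tnfsf13b, which is in the cytokine list, at chr8:10006383-10006682 on the plus strand.
Ifit3: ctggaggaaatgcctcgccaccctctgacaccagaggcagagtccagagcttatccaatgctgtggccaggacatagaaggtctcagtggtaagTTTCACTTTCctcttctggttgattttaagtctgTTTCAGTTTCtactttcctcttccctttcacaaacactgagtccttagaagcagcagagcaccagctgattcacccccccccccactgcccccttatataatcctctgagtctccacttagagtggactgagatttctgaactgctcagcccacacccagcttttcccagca
Isg15: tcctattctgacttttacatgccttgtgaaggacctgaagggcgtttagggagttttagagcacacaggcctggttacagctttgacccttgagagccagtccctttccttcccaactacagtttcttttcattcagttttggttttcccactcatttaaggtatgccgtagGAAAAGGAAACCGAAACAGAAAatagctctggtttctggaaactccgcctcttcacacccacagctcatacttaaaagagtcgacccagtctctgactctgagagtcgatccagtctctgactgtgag
Rsad2: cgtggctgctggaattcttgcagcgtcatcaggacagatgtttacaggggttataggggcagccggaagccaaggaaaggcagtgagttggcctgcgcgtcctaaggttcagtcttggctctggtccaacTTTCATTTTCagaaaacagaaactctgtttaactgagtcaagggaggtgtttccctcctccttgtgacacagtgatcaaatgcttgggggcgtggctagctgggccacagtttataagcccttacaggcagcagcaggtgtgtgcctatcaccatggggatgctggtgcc
Tnfsf13b: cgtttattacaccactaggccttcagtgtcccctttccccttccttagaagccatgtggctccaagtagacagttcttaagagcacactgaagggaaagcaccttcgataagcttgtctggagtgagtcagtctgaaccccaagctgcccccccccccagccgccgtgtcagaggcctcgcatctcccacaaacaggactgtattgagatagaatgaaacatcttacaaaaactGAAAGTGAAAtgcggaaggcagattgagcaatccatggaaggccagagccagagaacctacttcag
Ifit3 has 2 matches, beginning 156 and 122 bases before the gene start, and Isg15 has 3 that overlap one another from 78 bases before it. The single match of Rsad2 begins 120 bases before the start and that of Tnfsf13b 16 bases before it. The core is in 7 of 19 windows of the interferon genes that fell (36.8%) and in 4 of 13 windows of those that did not pass (30.8%), against 4.02% of the genes tested and 3.99% of all genes with a window. Over all 1060 lower genes the share was 5.78%, and over all 1425 higher genes 3.13%. Saa3, the largest rise, also holds the core, 125 bases before its start, alone among 14 windows of the 15 largest rises (7.14%). The STAT element TTCNNNGAA is in 2 of 19 windows of the interferon genes that fell (10.5%). It is in 5 of 13 windows of those that did not pass (38.5%) and in 1 of 14 windows of the 15 largest falls (7.14%).

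**Figure D3:**
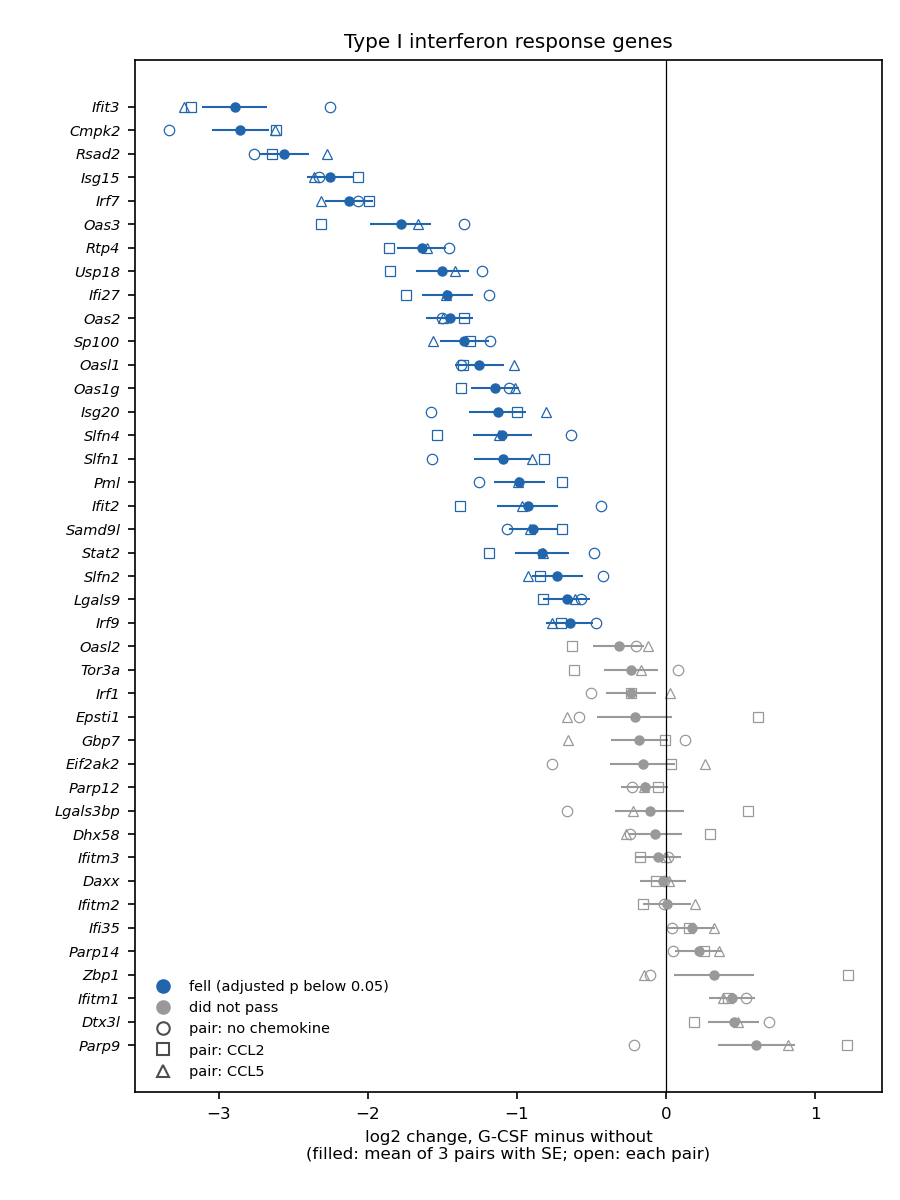
Log2 change with G-CSF of the 41 tested type I interferon genes, with an open symbol for each of the 3 chemokine pairs and a filled one for their mean with its SE, blue where the gene fell. The 23 that fell run from -0.65 for Irf9 to -2.89 for Ifit3, and no member rose, while 8 rose under scaling to the median of all probes.

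Fresh cells give a further level for these genes. Rsad2 read 10.98 and 10.55 in fresh cells of tumor-bearing mice and 11.96 and 11.87 in fresh cells of control mice, Isg15 read 7.89 and 7.59 in fresh cells of tumor-bearing mice and 8.08 and 8.23 in fresh cells of control mice and Irf7 read 7.83 and 7.62 in fresh cells of tumor-bearing mice and 8.04 and 8.35 in fresh cells of control mice. Levels of fresh control cells were thus near those of the cultures without G-CSF for Rsad2, and between those of the arms for Isg15 and Irf7. Genes of the interferon-gamma induced GTPases, which attack intracellular pathogens, divided, with 2 of 10 higher and 2 lower (median -0.16, and 0.23 under scaling to the median of all probes). Igtp read 6.96, 7.26 and 6.89 with G-CSF, against 8.86, 8.56 and 8.84 without it and fell by 1.72 (SE 0.18), and Irgm2 fell by 1.21 (SE 0.16), whereas Gbp3 rose by 0.85, which did not pass without the pair that had no chemokine (0.71).

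Adenosine and nucleotide genes were led by Nt5e. Of 16 tested genes 2 rose and 6 fell with a median of -0.11, and under scaling to the median of all probes 7 rose and 6 fell with a median of 0.30. P2rx1, an ATP-gated channel, read 5.71, 5.79 and 5.53 with G-CSF, against 6.73, 7.22 and 7.02 without it (change -1.31 ± 0.17), and P2ry14, the receptor of UDP-glucose, read 6.87, 6.76 and 7.17 with G-CSF, against 7.73, 8.16 and 8.56 without it (change -1.22 ± 0.18). P2rx4, another ATP-gated channel, rose by 1.13 ± 0.17 and Adk, which phosphorylates adenosine, by 0.77 ± 0.15. Adora3, an adenosine receptor, did not pass (0.03). The Nt5e levels of 6.02, 6.58 and 5.89 with G-CSF were near those of fresh cells, which were 5.51 and 5.27 in tumor-bearing mice and 5.90 and 5.63 in control mice.

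Among 35 regulators of apoptosis 11 rose and 3 fell, beside 16.6% higher and 12.3% lower among all genes. Their median was 0.25 (0.65 under scaling to the median of all probes), but under scaling to the detected probes 9 rose and 11 fell (median 0.07). Both promoting and opposing members moved. Bbc3, the death-promoting protein PUMA, read 9.26, 9.16 and 9.42 with G-CSF, against 7.57, 7.08 and 7.65 without it (change 1.85 ± 0.16, and -0.10 on another probe), and Bad, another promoter of death, read 7.36, 7.61 and 7.40 with G-CSF, against 6.68, 6.69 and 6.51 without it (change 0.83 ± 0.16). Bcl2l1, which encodes the survival protein BCL-XL, read 7.74, 7.0 and 7.65 with G-CSF, against 6.77, 6.51 and 6.28 without it and rose by 0.94 ± 0.20, a call lost without the pair that had no chemokine (0.93). Its other detected probes gave 0.79 and 0.17. Mcl1, the survival factor on which neutrophils depend, stood at -0.36 (adjusted p = 0.159), and Bcl2a1b, Xiap and Casp8 did not pass either (-0.29, -0.14 and 0.09).

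Stress genes did not move as 1 block. In the integrated stress response and amino acid list 5 of 29 genes rose and 7 fell (median -0.05), and under scaling to the median of all probes 15 rose and 4 fell (median 0.46). Beside Nupr1, Ddit4, an inhibitor of the growth kinase mTORC1, read 7.24, 7.58 and 7.65 with G-CSF, against 5.77, 6.40 and 5.08 without it (change 1.74 ± 0.26), and Asns, asparagine synthetase, read 9.07, 9.46 and 9.28 with G-CSF, against 7.74, 7.78 and 7.56 without it (change 1.58 ± 0.16, and 0.51 on another probe). The transcription factor gene Atf3 fell by 1.15 (SE 0.17), Sesn2 by 0.98 and the cystine transporter gene Slc7a11 by 1.03. Atf4, the central factor of the response, stood at 0.11 and did not pass. Of 22 unfolded protein and heat shock genes 1 rose and 1 fell, the chaperone gene Hspa8 by 0.84 (SE 0.16) in the case of the fall. Under scaling to the median of all probes 9 of them rose and 1 fell, and under scaling to the detected probes 1 rose and 4 fell.

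Metal, heme and redox genes moved both ways, in shares near those of all genes, though some of them were among the larger rises. Mt1, a metallothionein that binds zinc and copper, read 10.87, 11.07 and 10.96 with G-CSF, against 8.45, 8.14 and 8.15 without it (change 2.72 ± 0.17), while its partner Mt2 was detected on 2 arrays with G-CSF and on 1 without, and did not pass. Hmox1, heme oxygenase 1, read 9.20, 9.17 and 9.21 with G-CSF, against 6.98, 7.22 and 7.39 without it (change 2.00 ± 0.16), and Blvrb, biliverdin reductase B, which acts on products of heme breakdown, read 9.23, 9.24 and 9.32 with G-CSF, against 7.90, 7.67 and 8.03 without it (change 1.40 ± 0.16). Gss, glutathione synthetase, read 4.78, 4.99 and 4.71 with G-CSF, against 6.58, 6.76 and 6.59 without it and fell by 1.82 (SE 0.15). All 4 genes that passed here had separate arms, which was a condition for picking them. Over the 33 antioxidant, heme and iron genes 6 rose and 5 fell (median -0.01), near the 16.6% higher and 12.3% lower among all genes. The counts were 12 and 4 under scaling to the median of all probes (median 0.30) and 4 and 11 under scaling to the detected probes (median -0.28). Among glycolysis and hypoxia genes 5 of 26 rose and 6 fell (median 0.09), beside the same shares of all genes. The counts were 11 and 1 under scaling to the median of all probes and 5 and 8 under scaling to the detected probes (median -0.17). Ldha, lactate dehydrogenase A, read 12.04, 11.78 and 11.67 with G-CSF, against 10.54, 10.10 and 10.37 without it (change 1.50 ± 0.16), Pfkl, a phosphofructokinase subunit, rose by 1.06 ± 0.17, and Mif, a cytokine induced by hypoxia, by 1.51 ± 0.17 (0.50 on another probe). Gapdh, Pgk1 and Hif1a did not pass (0.08, 0.01 and 0.15).

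Of 26 NF-kB subunits and targets 8 rose and 2 fell, beside 16.6% higher and 12.3% lower among all genes. Their median was 0.24 (0.69 under scaling to the median of all probes), and under scaling to the detected probes 5 rose and 4 fell (median 0.12). Ikbke, a kinase of innate signalling, read 10.17, 10.27 and 10.45 with G-CSF, against 8.29, 7.96 and 8.07 without it (change 2.19 ± 0.17), and Cyld, a deubiquitinase that restrains the pathway, rose by 1.14 ± 0.16 (-0.33 on another probe). Cd80, a costimulatory ligand of T cells, read 6.97, 7.26 and 7.0 with G-CSF, against 9.38, 9.64 and 9.56 without it and fell by 2.45 (SE 0.16, and -0.43 on another probe). The subunit genes Rela, Rel, Relb and Nfkb2 did not pass (0.03, 0.24, 0.24 and 0.42).

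Immediate early transcription factors rose in 3 and fell in 8 of 27 cases, with a median of -0.23 that was 0.12 under scaling to the median of all probes. Id2, an inhibitor of helix-loop-helix factors, read 11.10, 10.84 and 10.92 with G-CSF, against 8.70, 8.84 and 8.81 without it (change 2.18 ± 0.16, and 0.96 on another probe), and the related Id3 rose by 1.21 ± 0.17. Egr2, a zinc finger factor, read 8.20, 8.29 and 8.27 with G-CSF, against 9.66, 10.01 and 9.60 without it, a fall of 1.50 (SE 0.16), and Fosl2, a member of the AP-1 family, fell by 1.23 (SE 0.16). Of 31 factors that guide myeloid development 0 rose and 11 fell, beside 16.6% higher and 12.3% lower among all genes. Their median was -0.31, and 0.07 under scaling to the median of all probes, where 4 rose and 7 fell. Cebpe, the driver of late granulocyte maturation, read 6.57, 6.78 and 6.77 with G-CSF, against 7.94, 8.10 and 8.09 without it (change -1.33 ± 0.15), and Pparg and Lmo2 changed by -1.23 and -1.20. Spi1 and Cebpb did not pass (-0.14 and 0.23).

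Pattern recognition receptors rose in 2 and fell in 7 of 33 cases (median -0.09), and under scaling to the median of all probes 12 rose and 2 fell (median 0.28). Tlr4, the receptor of lipopolysaccharide, read 8.14, 8.10 and 8.24 with G-CSF, against 9.63, 9.58 and 9.69 without it (change -1.47 ± 0.15, and -0.26 on another probe). Tlr1, which senses bacterial lipopeptides, rose by 1.10 ± 0.16, Ticam2, an adaptor of TLR4, by 0.94 ± 0.21, and Clec4n, the lectin dectin-2, fell by 1.21 (SE 0.17). Tlr2, Cd14 and Myd88 did not pass (0.14, 0.00 and -0.21). Other lists had members that passed in both directions, or 1 alone, and their counts changed with the scaling. In the Fc receptor list 1 of 11 rose and 2 fell (2 and 0 under scaling to the median of all probes). In the MHC class I list 2 of 20 rose and 3 fell (8 and 1 under that scaling). In the NADPH oxidase list 1 of 7 rose and 0 fell (1 and 1 under scaling to the detected probes). In the cell cycle list 3 of 13 rose and 2 fell (2 and 5 under scaling to the detected probes). In the ribosome biogenesis list 5 of 31 rose and 5 fell, with 14 and 2 under scaling to the median of all probes and 5 and 12 under scaling to the detected probes. In the list of suppressive myeloid effectors 5 of 21 rose and 5 fell, with 11 and 3 under scaling to the median of all probes and 3 and 6 under scaling to the detected probes. In lipid metabolism 4 of 27 rose and 6 fell, but 9 rose and 3 fell under scaling to the median of all probes, and 2 rose and 12 fell under scaling to the detected probes. Its members included Dgat2, which completes triglyceride synthesis, at 11.99, 11.73 and 11.77 with G-CSF, against 10.72, 10.38 and 10.51 without it (change 1.29 ± 0.15) and Ltc4s, leukotriene C4 synthase, at 7.02, 7.38 and 7.54 with G-CSF, against 9.01, 8.83 and 9.21 without it (change -1.70 ± 0.17).

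Several leading genes belong to none of these lists. Dpep2 and Dpep3, neighbouring genes of membrane dipeptidases, rose by 2.98 ± 0.22 and 2.69 ± 0.21, Igfbp6, which sequesters insulin-like growth factors, by 2.86 ± 0.18, and Prnp, the prion protein gene, by 2.68 ± 0.16. Mfsd7a, a membrane transporter, rose by 2.77 ± 0.17 (0.44 on another probe). On the other side Eml1, a microtubule-binding protein, fell by 2.44 (SE 0.16), Rgcc, a regulator of the cell cycle, by 2.30, Tgm3, a transglutaminase, by 2.31 and Ifit1bl2, a relative of Ifit1, by 2.27. Ear3, a ribonuclease of the eosinophil-associated family whose members are near-identical, fell by 2.33 (SE 0.17). All 10 were higher or lower in each of the 3 pairs, as their choice from genes with non-overlapping arms requires.

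Markers of other blood cells were lower with G-CSF. Of 104 markers in 8 lists 53 were tested, and of these 33 fell and 0 rose, with a median change of -0.93 (-0.46 and -1.04 under the scalings, and 8 rose and 27 fell under scaling to the median of all probes). The mean level of the 9 T cell markers was 6.63 to 6.80 on arrays with G-CSF and 7.82 to 7.98 on those without, that of the 11 B cell markers was 5.73 to 5.92 with G-CSF and 6.86 to 7.01 without it, and that of the 8 dendritic cell and MHC class II genes was 7.16 to 7.28 with G-CSF and 8.17 to 8.22 without it. Cd3d, part of the CD3 complex of T cells, read 9.37, 9.43 and 9.26 with G-CSF, against 11.69, 11.61 and 11.60 without it (change -2.28 ± 0.16), Cd79b, of the B cell receptor, changed by -1.83 ± 0.15, and Alas2, the red cell enzyme of heme synthesis, by -2.51 ± 0.16. In the monocyte list 2 of 7 fell and 0 rose (1 and 4 under scaling to the median of all probes), in the eosinophil, basophil and mast cell list 2 of 7 and in the platelet list 0 of 2, and Adgre1, Csf1r and Fcer1a did not pass (0.02, 0.28 and 0.00). Both tested progenitor markers, Kit and Prtn3, were detected with G-CSF only on the probes used, so they passed the filter through that arm alone. Another Kit probe gave a change of 0.01. Cd34, Elane and Ctsg, like the T cell genes Cd4 and Cd8a, did not pass the detection filter. The lower markers of other blood cells moved with the lower gene lists above, among them the interferon, receptor and adhesion lists. Their part in those results was not tested. The part of slide and scan batches, which the sources used here do not name, was not tested either.

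The leading genes changed the same way with G-CSF in all 3 chemokine settings, which was fixed by picking them from genes with non-overlapping arms. Changes of single pairs correlated across the 8610 genes at 0.681 to 0.725, as a description, since the pairs share arrays' normalization and genes are not replicates. Saa3 was higher by 4.60 without chemokine, by 5.20 with CCL2 and by 4.20 with CCL5, and Nt5e changed by -3.43, -3.00 and -3.89 in the same order. The type I interferon list had medians of -0.58, -0.71 and -0.81 over the 3 settings, and the secreted list 1.42, 0.99 and 0.84. A test of whether the G-CSF change differs between settings was run on 8 group means over all 10 arrays, in which only the 2 fresh pairs supply a spread, so that the single cultured arrays are taken to vary as those pairs do. With CCL2 against alone 0 of 9744 genes passed in limma (0% called, 884 at an unadjusted p below 0.05, smallest adjusted p = 0.306), and with CCL5 against alone 0 of 9744 (0%, 707 unadjusted, smallest adjusted p = 0.359). Over the alternative settings the smallest adjusted p ran between 0.187 and 0.492 for CCL2 and between 0.276 and 0.573 for CCL5. Basp1 and Cabp2 had the smallest p in each direction for CCL2, with differences of 2.24 ± 0.42 and -1.89 ± 0.35 (SE), and Lin28a and Gas2l3 for CCL5, with 2.14 ± 0.36 and -2.07 ± 0.37, and none of them passed the adjustment.

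**Figure D4:**
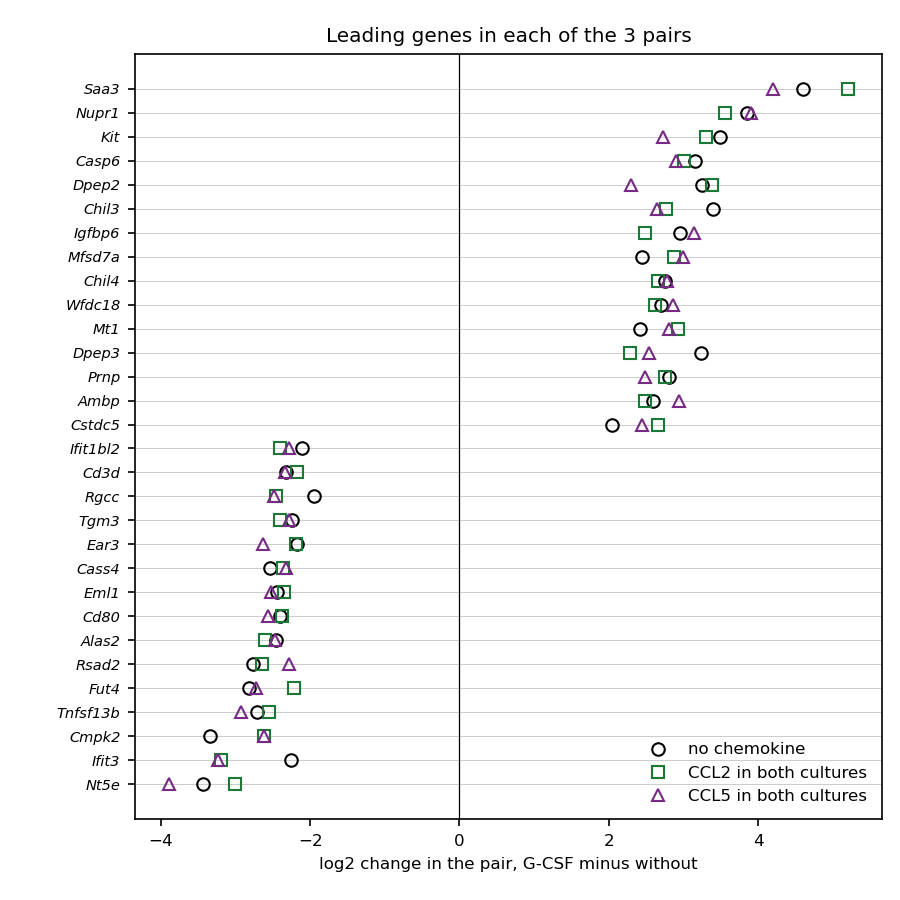
Log2 change with G-CSF of the 15 largest rises and 15 largest falls in each of the 3 chemokine settings, 1 point per setting. All 30 genes keep their direction in all 3 settings, with Saa3 at 4.60, 5.20 and 4.20. That agreement is fixed by their choice from genes whose arms do not overlap.

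Tumors of the 4T1 line are known to secrete G-CSF, so the change with G-CSF in cultured cells was set beside that of fresh neutrophils from tumor-bearing mice against control mice, which shares no array with it. As said above, the labels do not tell whether the G-CSF was given in the well or to the mouse. In 1 fit of all 10 arrays with 9744 genes, 1691 genes were higher and 1233 lower with G-CSF, and 707 (7.26%) were higher and 1029 (10.6%) lower in tumor-bearing mice. Higher in both were 214 genes, which is 12.7% of those higher with G-CSF and 30.3% of those higher in tumor-bearing mice. Lower in both were 369, or 29.9% and 35.9%. The first share of each pair is to be read beside 7.26% and 10.6%, and the second beside 1691 and 1233 of 9744 genes. Called in opposite directions were 117 and 81 genes, 6.92% of those higher and 6.57% of those lower with G-CSF. The difference between the effects, G-CSF minus tumor, passed for 2059 genes (21.1%), 1291 with a higher and 768 with a lower value under G-CSF, and under scaling to the median of all probes for 3176, of which 84.6% were higher, against 62.7% here and 45.7% under scaling to the detected probes.

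Saa3, Nupr1, Kit, Casp6, Ambp, Igfbp6, Wfdc18 and Prnp were higher in both comparisons, with tumor changes of 3.22, 2.20, 3.63, 2.32, 4.54, 3.35, 3.48 and 2.82. Cmpk2, Ifit3, Fut4 and Cd80 were lower in both (-2.22, -3.19, -2.05 and -1.67 with a tumor). Chil3 stood at 0.41 with a tumor, Nt5e at -0.37 and Cass4 at 0.10, none of which passed there. Acute-phase genes rose in 13 of the 23 cases with a tumor (median 0.90), against 7.68% of the same 8610 genes. Type I interferon genes fell in 12 and rose in 3 of the 41 (median -0.24), against 11.6% lower, glycolysis and hypoxia genes rose in 16 and fell in 1 of the 26 (median 0.66), and markers of other blood cells fell in 35 of the 53 and rose in 1 (median -1.16).

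The smallest p-values of the difference belonged to Cnnm2, a membrane protein of magnesium handling, and Scimp, a transmembrane adaptor of immune cells. Cnnm2 stood at -0.05 with G-CSF and at 4.04 with a tumor, a difference of -4.09 ± 0.26 (adjusted p = 6.55e-06), and Scimp at -0.49 with G-CSF and 3.18 with a tumor, a difference of -3.67 ± 0.26 (adjusted p = 1.12e-05). For Cnnm2 the cultures without G-CSF read 6.64, 7.10 and 7.13, against 4.97 and 5.19 in fresh control cells. Among genes with a positive difference, Cd40, a TNF receptor family member that activates antigen-presenting cells, rose by 0.73 with G-CSF and changed by -2.20 with a tumor, a difference of 2.93 ± 0.25 (adjusted p = 1.92e-05), and its G-CSF call was lost in the fit of cultured arrays without the pair that had no chemokine (0.62). Tnfrsf13b, a receptor of BAFF, differed by 3.28 ± 0.30 (1.03 with G-CSF and -2.25 with a tumor), and Bbc3 by 2.65 ± 0.25 (1.85 and -0.80). Of 11 tested B cell markers, 10 fell and 0 rose with a tumor (median -2.30), and 8 fell and 0 rose with G-CSF (median -1.28). The part of B cells in the differences of Cd40 and Tnfrsf13b was not tested. St6gal1, a sialyltransferase, did not pass with G-CSF (-0.13) and stood at -2.87 with a tumor. Among genes with a negative difference, Prok2 rose in both but by less with G-CSF (2.10) than with a tumor (5.58), a difference of -3.48 ± 0.26. Its starting levels were unlike, at 7.88, 8.16 and 7.59 in cultures without G-CSF and 5.30 and 5.24 in fresh control cells. The levels reached were closer, at 10.09, 9.90 and 9.96 with G-CSF and 10.93 and 10.77 in fresh cells of tumor-bearing mice. Egr2 changed by -1.50 with G-CSF and by 1.82 with a tumor (difference -3.32 ± 0.25), and Acod1, the enzyme that makes itaconate, stood at -0.26 with G-CSF, where it did not pass, and at 2.79 with a tumor. Acod1 read 12.74, 12.70 and 12.75 with G-CSF, against 12.91, 13.11 and 12.93 without it in culture, well above 10.55 and 10.37 in fresh cells of tumor-bearing mice. Of the 9744 genes, 67 were higher in both and 120 lower in both by at least 2-fold in each. Genes that passed in opposite directions by at least 2-fold in each numbered 14, and they included Tlr4 (-1.47 with G-CSF and 1.02 with a tumor), Il1rap (-1.09 and 1.59) and Vti1a (1.78 and -1.06). The 2 comparisons also differ in culture, time and the source of the cells, and these cannot be told apart from the stimulus.

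**Figure D5:**
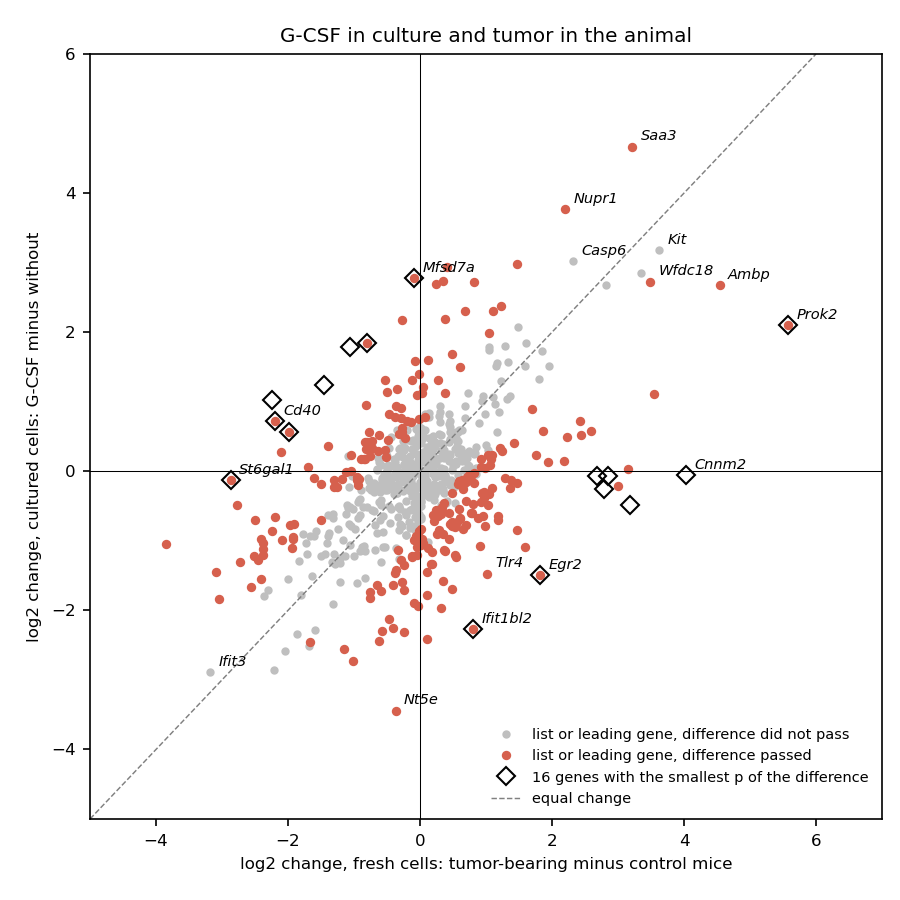
Log2 change with G-CSF in cultured cells (vertical axis) against log2 change with a tumor in fresh neutrophils (horizontal axis) of list genes and leading genes, with the 16 genes of smallest p for the difference drawn as diamonds and a dashed line where both changes are equal. Saa3 and Kit lie high on both axes, Prok2 has 2.10 with G-CSF and 5.58 with a tumor, and Nt5e has -3.44 with G-CSF and -0.37 with a tumor.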

How the data were processed

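Neutrophil RNA was hybridised to Illumina mouse bead arrays, 1 colour and 1 array per sample. The authors deposited 1 table of scanner output with 45281 probes, which holds per array the average intensity (linear scale, not normalized), the number of beads, the bead standard error and a detection p-value. Processed log2 values were deposited as well, and they match quantile-normalized log2 intensities to within 0.00531. Partek is named in the submitters' processing notes, without a version. Bead numbers (median 43 per probe and array) were read for depth only, while precision is limited by how few arrays there are.

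Intensities were corrected with the nec function of limma 3.58.1 in R 4.3.3 (offset 16), quantile-normalized over the 10 arrays and taken to log2. Of the probes, 34885 name 1 gene in the platform annotation, 18 name several and 10378 none; 15513 had a detection p-value below 0.05 on at least 2 of the 6 cultured arrays. Each gene was read from the passing probe with the highest mean. The test was limma with terms for G-CSF, CCL2 and CCL5 (2 residual degrees of freedom), with Benjamini-Hochberg adjustment over 8610 genes. Its empirical Bayes step adds 6.55 prior degrees of freedom from all genes. The SE and p-value of a gene are therefore moderated and do not measure its own pairs alone. The difference from the tumor effect was tested on all 10 arrays with 9744 genes (4 residual degrees of freedom).

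Named genes are the 15 largest rises and falls among called genes whose arms do not overlap, up to 3 risers and 3 fallers of smallest p per list, the ligands and receptors, and 8 genes per direction for each difference. Further list members, those that did not pass included, were named after their values were seen. The lists, the comparison and its members were chosen with earlier results of these data known. Alternatives were another normalization (scaling to the median of all probes or of the detected probes), the authors' processed values, an offset of 50, other filters, other rules for probes and each pair or array left out.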

Additional observations from a re-analysis of the deposited data

How the results depend on the processing

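The number of genes called for G-CSF was 4512 under scaling to the median of all probes, against 2485, and the cause was not tested. Leaving out 1 pair or array, which leaves fewer arrays in the fit, gave 1420 to 2040, with the lowest count without the pair that had no chemokine. The 11 other settings gave 2125 to 3390. For the difference between the G-CSF and the tumor effect the count was 3176 under scaling to the median of all probes, against 2059, and 1133 to 1447 with 1 fresh array left out, the lowest without tumor replicate 2. The fresh arrays share only a replicate number, with deviations that correlated at 0.0617 across genes, and with a replicate block of the fresh arrays the count was 1902. The cultured arrays are paired by chemokine setting in the fit, and without that term 2741 genes were called. Of 220 called changes of named genes, 155 passed under all alternatives in which they were tested and 0 reversed. No difference between chemokine settings passed under median scaling, the authors' processed values, no filter or limma-trend. Genes detected in 1 arm alone have only a lower bound, and bead arrays show nothing below background.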

Other observations

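Of 44 tested histone genes that are normally expressed as DNA is copied, and whose transcripts lack a poly(A) tail, 22 rose, 1 fell and 21 did not pass, beside 16.6% higher and 12.3% lower among all genes. These genes were picked after their values were seen, many are near-identical in sequence so that a probe may read several, and no test was made of them as a group. Their median change was 0.49, against 0.06 over all genes. The counts of risers and fallers were 30 and 1 under scaling to the median of all probes, 18 and 2 under scaling to the detected probes, and 27 and 1 with the authors' processed values. H1f2, a linker histone, read 13.76, 13.47 and 13.27 with G-CSF, against 11.71, 11.85 and 11.55 without it, so the arms were separate (change 1.80 ± 0.17). H2ac12, which encodes an H2A core histone, read 9.47, 9.50 and 9.46 with G-CSF, against 7.45, 7.89 and 7.38 without it (change 1.90 ± 0.17). H2bc3, an H2B gene, was the one that fell, with 6.06, 5.51 and 5.87 against 6.61, 7.27 and 6.88. In tumor-bearing mice 1 of the 44 rose and 2 fell against control mice, with a median of 0.08.

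Myl2 and Acta2, 2 genes best known from muscle, fell with G-CSF. They were picked after their values were seen, and no list of muscle genes was counted. Myl2, a myosin light chain of heart and slow muscle, read 6.53, 6.32 and 6.41 with G-CSF, against 8.64, 8.42 and 8.65 without it (change -2.15 ± 0.15). Acta2, smooth muscle actin, read 10.78, 10.98 and 10.49 with G-CSF, against 12.65, 12.59 and 12.73 without it (change -1.91 ± 0.18). Both genes were also lower in fresh cells of tumor-bearing mice, with changes of -1.69 ± 0.21 and -0.89 ± 0.19. Levels of Acta2 in fresh control cells, 11.90 and 11.86, lay between those of the cultured arms.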
